A study of Arabidopsis thaliana with 4 samples.

Results

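The regions described here are places beside Arabidopsis thaliana genes where chromatin immunoprecipitation followed by sequencing (ChIP-seq) of the MYB-like factor RVE5 gave a peak in at least 2 of 3 replicates. They number 216 of 1674 merged regions in all. Members were chosen by the authors' peak calls and by position: peaks of the 3 lists that shared 1 bp or more were merged, and a region was kept where at least 2 lists held a peak. Its centre, the mean of the peak summits, had to lie outside every annotated gene span, within 1000 bp of a protein-coding gene, and outside 1 pericentromeric interval on each chromosome. The presence of a peak depends on its fold and p-value, so the folds and pileups given for the members are a description and are not tested.

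All 4 libraries came from 14-day-old seedlings of a line that overexpresses RVE5 with a MYC tag. The plants were grown at 22 °C in 16 h light and 8 h dark, then spent 12 h at 29 °C before harvest at zeitgeber time 12 h. Replicates 1, 2 and 3 were precipitated with an antibody against MYC, and 1 input library had no antibody. The input library was not analysed here, and there were no seedlings without the tag, so signal of the antibody without RVE5-MYC and binding of RVE5-MYC cannot be told apart. The promoter that drives the transgene and the number of lines were not given in the sources used here. The labels do not state that each replicate came from its own plants, so SDs measure the spread between these samples, which may be technical.

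RVE5 belongs to the REVEILLE family, related to CCA1 and LHY of the morning clock, which share a MYB-like DNA-binding domain. In plants, factors of this kind commonly act from short elements in the intergenic sequence beside genes, and many targets of CCA1, LHY and RVE8 are genes with a peak of expression late in the day. Intergenic sequence in Arabidopsis is short, so a region can lie close to the ends of 2 genes. The gene table used here gives no strand, so beside a gene means on either side of it, and no start or end of transcription is meant.

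The lists of replicates 1, 2 and 3 held 676, 827 and 864 peaks with a median pileup of 38, 39 and 40 reads at the summit. The pileup is the height of the overlapping reads at the summit, and the fold is the authors' value for that peak over a local background. Each fold belongs to its own list. A mean ± SD over lists therefore describes how far the lists differ at 1 region.

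Of the 463 regions in at least 2 lists outside the left-out intervals, 216 (46.7%) met the position rule. The centre of another 176 fell in a protein-coding gene and that of 25 in a gene of another kind, and 46 lay farther away. Among the 216, 83 had a peak in all 3 lists and 133 in 2 lists. The 2-list regions were spread over the 3 pairs of lists, with 49 from replicates 1 and 2, 36 from replicates 1 and 3, and 48 from replicates 2 and 3. A summit of the missing list lay within 1000 bp of the centre at 6 of the 133. A peak of that list that overlapped the region would have made it a region of 3 lists. A low count thus follows in part from the rule.

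The region beside GI stood above all others in fold and pileup in every list. GI is a clock gene that also acts in photoperiodic flowering. The region, on chromosome 1 from 8060669 to 8061336, had a pileup of 129, 143 and 146 reads in replicates 1, 2 and 3 and a fold of 7.84, 8.31 and 8.21. The lowest of these folds was above the highest of any other member, the 6.65 of the BBX8 region in replicate 3. GI was also the farthest from its gene among the 10 highest-ranked members, with its centre 735 bp away in a gap of 2690 bp between protein-coding genes.

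**Figure D1:**
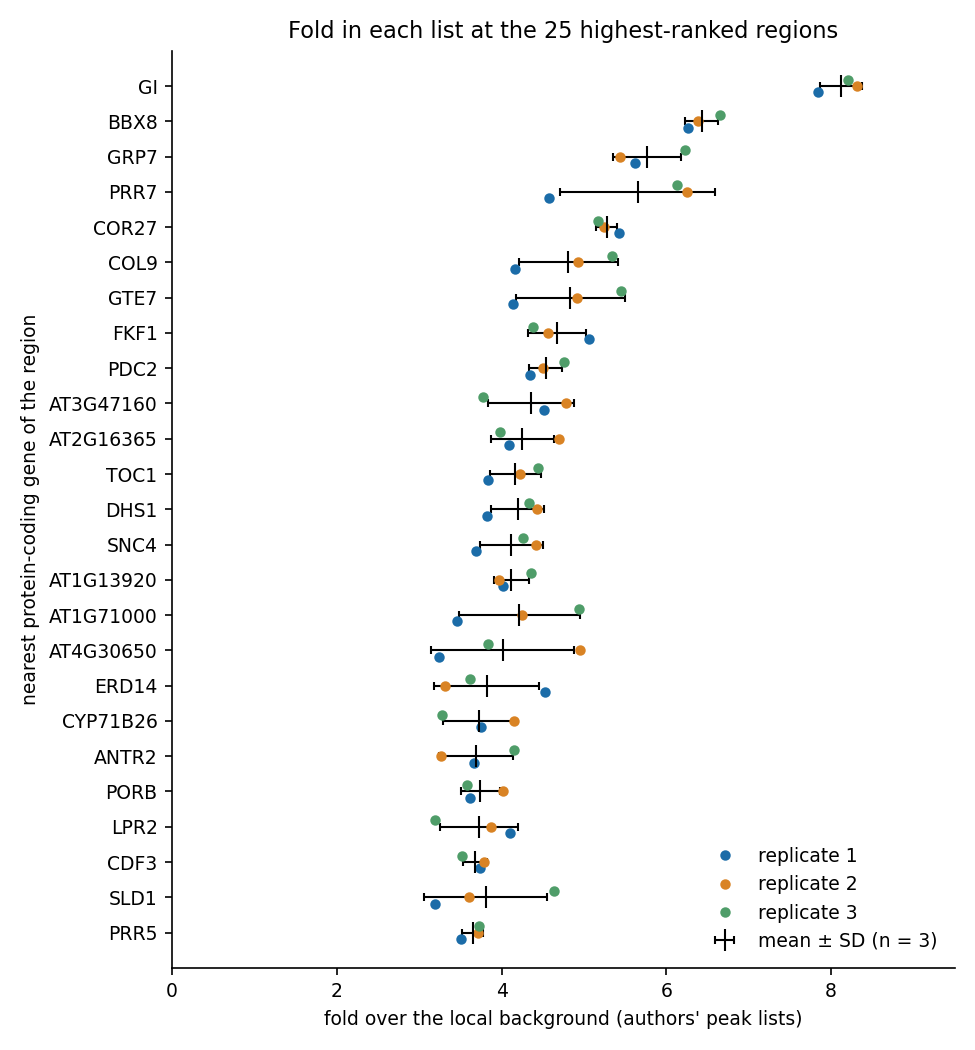
Fold over the local background (x axis, the authors' value) at the 25 members with a peak in 3 lists and the highest mean rank of the fold, named by the nearest protein-coding gene (y axis). Coloured points are the 3 lists and black bars the mean ± SD (n = 3). GI, at 7.84 to 8.31, lies apart from the rest, while many neighbours lower in the order overlap.

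The next regions lay beside BBX8, GRP7, PRR7 and COR27. BBX8 encodes a B-box zinc finger protein. Its region on chromosome 5 from 19563716 to 19564255 had a fold of 6.26, 6.38 and 6.65 and a pileup of 93, 100 and 109 reads. The centre lay 105 bp from BBX8 and 485 bp from AT5G48270. The region of GRP7, which encodes a clock-regulated RNA-binding protein, lay on chromosome 2 from 9266110 to 9266814 and had a fold of 5.62, 5.44 and 6.23. Its pileup of 106, 109 and 125 reads was above that of BBX8 in every list, although its fold was lower in every list. These values show that the order of the members depends on whether it is read from the pileup or from the fold.

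PRR7, a pseudo-response regulator of the clock, had the widest spread of these, with a fold of 4.57, 6.25 and 6.13 and a pileup of 70, 102 and 104 reads. Its region lay on chromosome 5 from 641921 to 642518, 96 bp from PRR7 and 428 bp from RHL2, a subunit of topoisomerase VI. The 3 summits lay within 8 bp of each other, so the lists differed in height and not in place. At COR27, which encodes a cold-regulated protein that represses clock genes, the fold was 5.42, 5.24 and 5.17 on chromosome 5 from 17199569 to 17200192. This is a spread of 0.130 (SD, n = 3) around a mean of 5.28, and the lists overlapped neither those of BBX8 nor those of GI. The centre lay 30 bp from COR27, and with the midpoint of the merged region as centre neither COR27 nor GRP7 met the position rule.

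Members of the clock and its outputs recurred further down the order. FKF1, a blue-light photoreceptor with an F-box that acts in flowering, had a fold of 5.06, 4.56 and 4.38 and a nearly equal pileup of 98, 101 and 100 reads. TOC1, the evening pseudo-response regulator, had a fold of 3.83, 4.23 and 4.44 at 109 bp from the gene. PRR5, which represses the morning genes, had 3.50, 3.71 and 3.73 at 246 bp. ELF4 and LUX, both parts of the evening complex, had a lower mean fold than FKF1, TOC1 and PRR5. Their fold also varied more between the lists than at those genes. ELF4 had a pileup of 51, 78 and 68 reads and a fold of 2.99, 4.12 and 2.77, and LUX had 63, 56 and 61 reads and 3.66, 2.84 and 3.35. Replicate 2 was the highest of the lists at ELF4 and the lowest at LUX. The LUX centre lay 232 bp from LUX and 250 bp from AT3G46630, so position does not single out 1 of the genes. That centre is a mean of summits up to 239 bp apart, in a gap of 481 bp.

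Of the photoperiod genes, the cycling DOF factors CDF1 and CDF3, repressors of flowering genes, had members far from the gene. The centre lay 742 bp from CDF1, with a fold of 3.27, 3.70 and 3.83, and 752 bp from CDF3, with 3.74, 3.78 and 3.51. COL9, a B-box gene of flowering time, had its centre 422 bp away and a fold of 4.16, 4.93 and 5.34. CCL, chosen after its values were seen and known for a clock-controlled transcript stability, had 3.30, 4.14 and 3.44, with its centre 67 bp from CCL and 68 bp from AT3G26730.

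Other genes in the highest-ranked 25 have roles outside the clock. GTE7, of a family of bromodomain proteins, had a fold of 4.13, 4.92 and 5.45 at 419 bp, in a gap of 7389 bp. DHS1, the first enzyme of the shikimate pathway, had 3.83, 4.43 and 4.33 at 48 bp, with AT4G39970 957 bp away. PDC2, a pyruvate decarboxylase, had 4.34, 4.50 and 4.75 between itself and AT5G54970, which left a gap of only 143 bp. PORB, an enzyme of chlorophyll synthesis, had 3.62, 4.01 and 3.58, and ANTR2, an anion transporter, had 3.66, 3.26 and 4.15. ERD14, a dehydrin, had 4.53, 3.31 and 3.61. The PORB centre lay 57 bp from PORB and 130 bp from AT4G27435. The ERD14 centre lay 85 bp from ERD14 and 160 bp from AT1G76170. The region between LPR2, which acts in the root response to low phosphate, and MYBL2, a repressor of anthocyanin synthesis, had 4.10, 3.87 and 3.19 in a gap of 192 bp. Its summits lay 164 bp apart, and it was the only one of the 25 that was lost when summits had to lie within 100 bp of each other. It was also lost without replicate 1.

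The remaining members of the 25 were CYP71B26, a cytochrome P450 (mean fold 3.72 ± 0.438), SLD1, a desaturase of sphingolipid synthesis (3.81 ± 0.747), SNC4, a receptor-like kinase of immunity (4.12 ± 0.385), and 5 regions whose nearest gene the table gives by its locus only. These 5 were AT3G47160 (4.35 ± 0.519), AT2G16365 (4.25 ± 0.384), AT1G13920 with AT1G13930 (4.12 ± 0.212), AT1G71000 (4.22 ± 0.739) and AT4G30650 with AT4G30660 (4.01 ± 0.871; SD, n = 3 for each). The AT2G16365 centre also lay 569 bp from AT2G16340. Replicate 2 had a pileup of 103 reads at AT4G30650 against 65 and 84 in replicates 1 and 3. The order of these regions is not resolved, since their lists overlap.

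**Figure D2:**
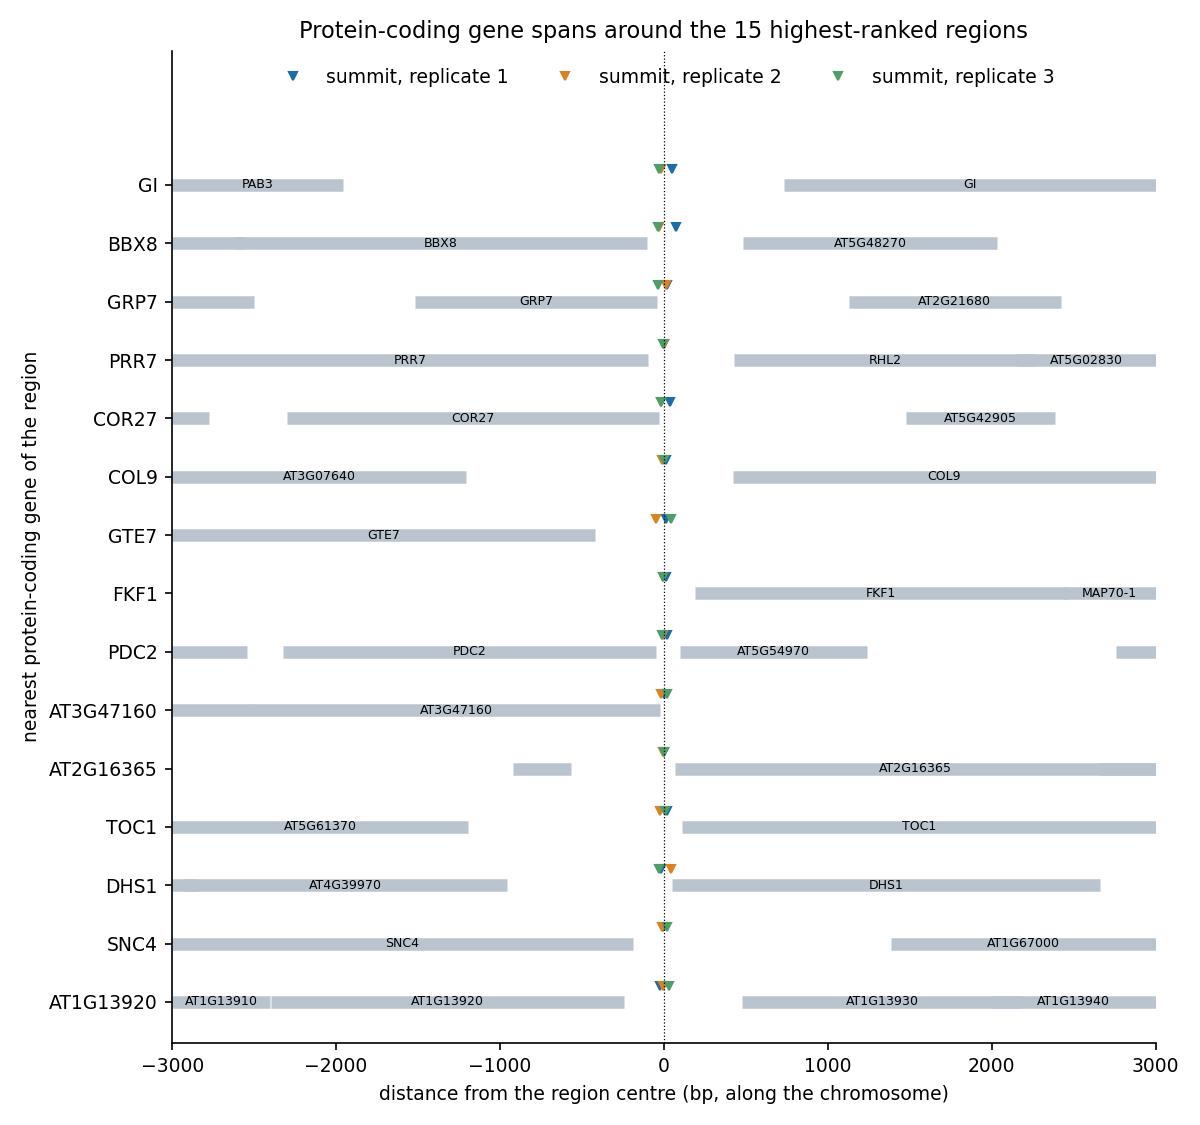
Protein-coding gene spans (grey bars, from the RefSeq gene table) and the summit of each list (coloured triangles) around the 15 highest-ranked members, with the distance from the region centre in bp along the chromosome on the x axis and the nearest gene on the y axis. Bars are cut at 3000 bp on either side; the PRR7, BBX8 and PDC2 centres lie between 2 close genes, while GI lies 735 bp from its gene.

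Across the 216 members the mean fold ranged from 1.93 to 8.12, and few were high. A mean fold of at least 4 was found at 17 members, all with a peak in 3 lists, and a mean fold of at least 5 at 5 members. The median of the mean fold was 3.13 for members of 3 lists and 2.54 for members of 2 lists. The median of the mean pileup was 52.3 and 40.5 reads. The number of lists that held a region rests on the same peak calls as these values, so no test was made. The median pileup of the members was 42 reads in replicate 1. A single peak of that height has a 95% exact Poisson interval from 30.3 to 56.8. In replicate 2 the median was 43.5 reads (31.5 to 58.5) and in replicate 3 it was 46 reads (33.7 to 61.4). These intervals are for a single peak of the given height and not for the median over regions. They cover counting error only and treat reads as independent.

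The lists ordered the 83 members of 3 lists alike. For replicates 1 and 2, Spearman's rho across these regions was 0.745 for the fold and 0.824 for the pileup. For replicates 1 and 3 it was 0.727 and 0.806, and for replicates 2 and 3 it was 0.761 and 0.859. The regions share the libraries, and the values are a description. The median coefficient of variation of the fold over the lists was 11.02%. Replicate 3, the longest list, had the highest pileup at 45 of the 83 members, replicate 2 at 24 and replicate 1 at 14. The highest fold was spread more evenly, over 35, 27 and 21 members. The summits of the lists lay a median of 68 bp apart at members of 3 lists, and within 100 bp at 60 of the 83.

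Pileup divided by fold gives the height of the local background that a fold of 1 would stand for. Its median over the members was 15.1, 16.0 and 16.6 reads in replicates 1, 2 and 3, and it ranged from 9.83 to 22.8 in replicate 1. A member with a low local background thus reached a given fold with fewer reads. An example chosen after its values were seen is the region between AT4G16957 and RPP5, a resistance gene in a cluster of similar genes, which had a pileup of only 42, 33 and 31 reads and a fold of 4.27, 3.22 and 2.92. How reads in such clusters were assigned was not given in the sources used here. By contrast FKF1 had about 100 reads and a fold under 5 in replicates 2 and 3. Across the 216 members, Spearman's rho of mean fold and mean pileup was 0.749, and both contain the same reads.

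**Figure D3:**
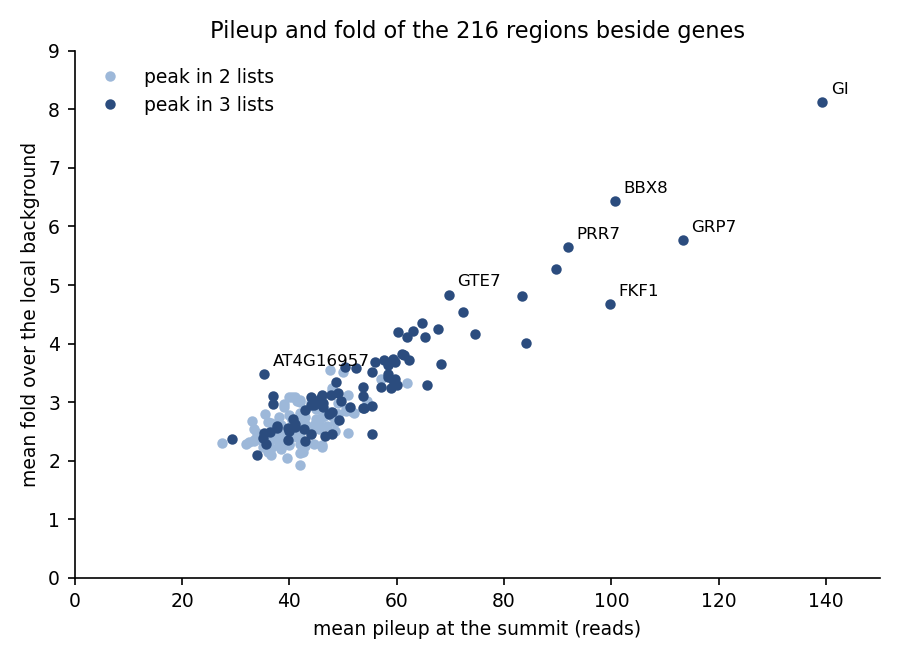
Mean pileup at the summit in reads (x axis) and mean fold over the local background (y axis) for each of the 216 members, over the lists that hold a peak. Dark points have a peak in 3 lists and light points in 2; GI stands apart at 139 reads and a fold of 8.12, while most members lie near 40 to 60 reads and a fold of 2 to 4.

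The members crowded close to their genes. The distance from the centre to the nearest protein-coding gene had a median of 190 bp, with quartiles of 87.2 and 374.5 bp and a range of 3 to 988 bp. Within 200 bp lay 114 members (52.8%), although only 34.0% of the 19.5 Mb that meets the position rule lies that close to a protein-coding gene. The number of centres per Mb of such sequence was 17.98 within 100 bp of a gene, 16.2 from 100 to 200 bp and 13.9 from 200 to 300 bp. It was 8.37 from 300 to 400 bp, 3.74 from 500 to 600 bp and 1.01 in the last 100 bp before the limit, where 1 member lay. The decline was not even, with 8.56 per Mb from 600 to 700 bp. In members of 3 lists alone it went from 8.45 per Mb within 100 bp to 1.81 from 800 to 900 bp and none beyond. No test was made of this distribution.

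Regions of 1 list beside genes, 477 in number, also lay close to genes. They had a median distance of 220 bp, with 45.9% within 200 bp, and went from 34.6 centres per Mb within 100 bp to 22.3 in the last 100 bp. The share within 200 bp was 57.8% for members of 3 lists and 49.6% for members of 2 lists. Whether these shares differ was not tested. Fold and distance were only weakly related among the members, with a Spearman's rho of -0.173 over 216 regions and -0.186 over the 83 of 3 lists, given as a description. GI, CDF1 and CDF3 had high folds far from the gene. So did TPPG, chosen after its values were seen, which encodes a trehalose-6-phosphate phosphatase and had its centre 822 bp away with a fold of 3.09, 3.79 and 3.67.

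**Figure D4:**
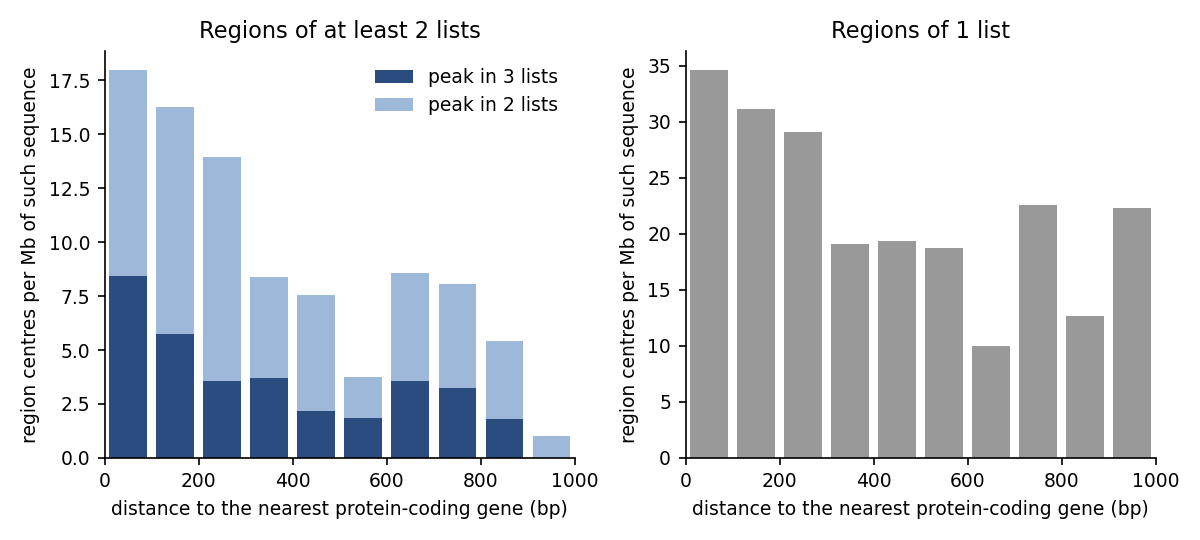
Region centres per Mb of sequence at the same distance (y axis) against the distance to the nearest protein-coding gene in bins of 100 bp (x axis). The left panel shows members of 3 lists (dark) and 2 lists (light), stacked, falling from 17.98 per Mb in the first bin to 1.01 in the last; the right panel shows regions of 1 list on its own axis, from 34.6 to 22.3 per Mb.

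The limit of 1000 bp cut through weak regions. The 3 members just inside it lay 876 bp from FUT4, a fucosyltransferase, 896.5 bp from AT4G34950, and 988 bp from HBI1, a bHLH factor that promotes growth. Their mean folds were 2.22, 2.29 and 2.36, each over 2 lists. The 3 regions just outside lay 1017.5 bp from AT1G03220, 1018 bp from KT2/3, a potassium channel, and 1024 bp from AT4G01245, with mean folds of 2.44, 2.26 and 2.39. Values on the 2 sides of the limit thus overlapped.

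Many members had more than 1 candidate gene. Within 1000 bp of the centre lay 1 protein-coding gene at 126 members, 2 at 84 and 3 at 6. At 88 members (40.7%) the centre lay between 2 genes that were both within 1000 bp, and at 22 members 2 genes lay within 200 bp. The gap between the flanking protein-coding genes had a median of 1617.5 bp, and 74 members (34.3%) lay in a gap under 1000 bp. Gaps under 300 bp held 20 members, 9.26% of all, but only 3.93% of the sequence that meets the position rule, which comes to 26.1 centres per Mb against 8.36 in gaps of 3000 bp or more. At 26 members the gap was no wider than the member's mean peak width. In all, 116 merged regions reached into their nearest gene although the centre lay outside it.

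The closest such pair was HSFA3, a heat shock factor, and CTR1, the kinase that represses ethylene signalling. Their region on chromosome 5 from 973945 to 974577 lay in a gap of 33 bp, 14 bp from HSFA3 and 20 bp from CTR1. Its pileup was 40, 59 and 62 reads and its fold 2.58, 3.55 and 3.64, with replicate 1 below the others. The region of HSFA1B, another heat shock factor, lay 130 bp from that gene and 87 bp from AT5G16810, with a fold of 2.21, 2.52 and 2.11.

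CAT3 and BBX28 were the only 2 genes with more than 1 member, and each had a member on each side. CAT3 encodes a catalase whose expression follows the clock. One region, 88 bp from CAT3 on chromosome 1 from 7142732 to 7143020, had a fold of 2.75, 3.17 and 2.82 in replicates 1, 2 and 3. The other lay between CAT3 and CAT1 in a gap of 95 bp and had peaks in replicates 2 and 3 only, with a fold of 2.68 and 2.32. CAT3 also had a region of at least 2 lists with its centre inside the gene, which is not a member. At BBX28, a B-box gene that acts in light signalling, the region 312 bp away on one side had a fold of 2.99, 2.74 and 3.59. Its summits lay up to 303.5 bp apart between the lists, so the 312 bp is a mean over summits that differ in place. The region 126 bp away on the other side had peaks in replicates 1 and 3 only, with 2.57 and 2.65. The mean pileup of the region with a peak in every list and of the other was 51.3 and 37 reads for CAT3. For BBX28 it was 53.7 and 38.5 reads. Peak calls rest on the same signal, so the higher value of the former is no separate result. A mean over 2 lists also leaves out the list without a peak.

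To set these genes in context, 8 lists with 113 genes were counted. In all, 310 of the 24503 protein-coding genes that could have a member had one within 1000 bp (1.27%), counting members of at least 2 lists. Of the 113 list genes 108 could have a member, and 25 of the 113 had one (22.1%), 19 of them with a member of 3 lists. The share of all protein-coding genes with a member of 3 lists was not counted, so counts in 3 lists have no background here. The gene lists were drawn up with earlier results of these data known, so the counts are no independent support and no test was made. Of 28 core clock genes 7 had a member, GI, PRR7, FKF1, TOC1, PRR5, ELF4 and LUX, all in 3 lists. Another 4, ELF3, LNK3, LNK4 and RVE7, had a region of at least 2 lists with its centre inside the gene, and are not members. RVE5 itself had no member, and the nearest peak of any list lay 8545 bp away.

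Of 11 clock output and photoperiod genes 5 had a member, GRP7, COR27, CDF1, CDF3 and CAT3, all in 3 lists. GRP8, COR28 and CAT3 had a region centre inside the gene. Of 17 B-box genes 5 had a member: BBX8, COL9 and BBX28 in 3 lists, and BBX29 and BBX24 in 2. BBX22 and BBX13 had a region centre inside the gene. BBX29 had a pileup of 52 and 62 reads and a fold of 3.26 and 3.54 in replicates 1 and 2. BBX24, a negative regulator of light responses, had a fold of 2.19 and 3.25 in replicates 2 and 3, with its centre 38 bp from the gene. The same centre lay 156 bp from AT1G06045 and 450 bp from AT1G06050.

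Cold and stress genes gave 2 of 11, the neighbouring cold regulators CBF1 and CBF2. Their regions on chromosome 4 lay 557 bp from CBF1, with a fold of 3.08, 2.62 and 3.69, and 67 bp from CBF2, with 2.94, 3.42 and 3.38. These genes are similar in sequence, and the assignment of reads between them was not given in the sources used here. The CBF1 centre also lay 945 bp from RS40. A further 5 of the 11, CBF3, ZAT12, COR15B, COR47 and KIN2, had a region centre inside the gene. Heat response genes gave 2 of 9, HSFA3 and HSFA1B, both in a gap under 300 bp with another gene.

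Light and warmth signalling genes had 2 of 12, and neither had a peak in every list. PIF4, a bHLH factor that drives elongation in warmth, had a pileup of 47 and 53 reads and a fold of 3.37 and 3.65 in replicates 2 and 3, 462.5 bp from the gene. PHYB, the red-light receptor that also senses temperature, had 38 and 45 reads and a fold of 2.93 and 3.11 in replicates 1 and 3, with summits 6 bp apart. Jasmonate repressors gave 1 of 12, JAZ5, with a fold of 2.39 and 2.47. JAZ9 had a region centre inside the gene. Highly transcribed leaf genes gave 1 of 13, RBCS1A, with 2.49 and 2.91 and summits 323 bp apart.

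**Figure D5:**
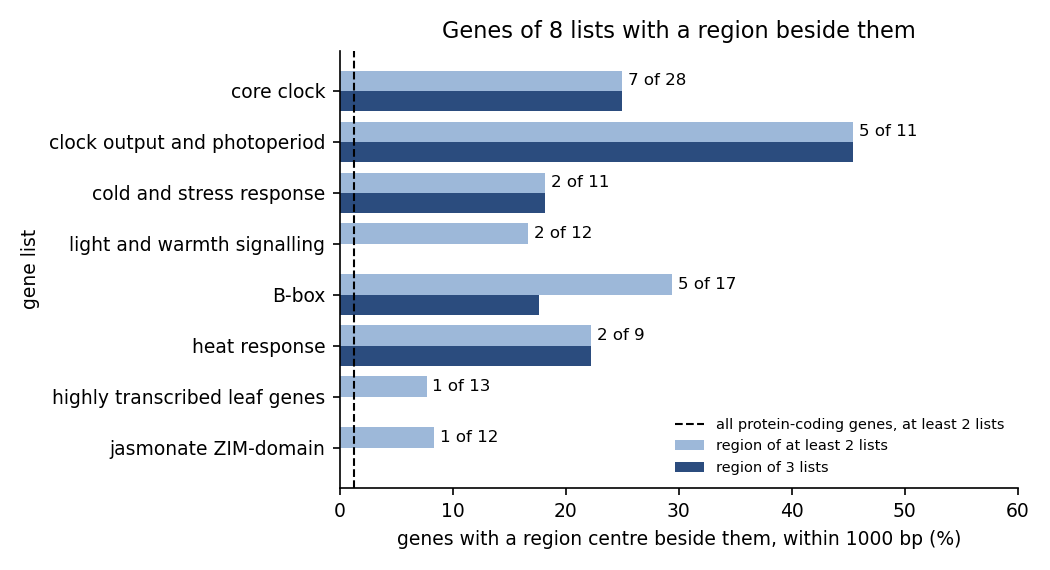
Percent of the genes of each list (y axis) that had a region centre beside them within 1000 bp (x axis), for regions of at least 2 lists (light bars, with counts) and of 3 lists (dark bars). The dashed line marks 1.27%, the share with a member of at least 2 lists among all protein-coding genes that could have one. No line is drawn for 3 lists. Light, leaf and jasmonate genes had no member of 3 lists.

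The 5 members of 2 lists with the highest mean fold lay beside AT5G62360 (3.56 ± 0.0885), PIF4, BBX29, HHP4 with NAGS2 (3.33 ± 0.501) and AT1G32650 with AT1G32660 (3.24 ± 0.600; SD, n = 2 for each). HHP4 encodes a heptahelical membrane protein and NAGS2 an enzyme of arginine synthesis. Their folds in the lists that held them were above the median of the members of 3 lists, 3.13, on average, yet the third list held no peak there.

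Members and the 176 regions with a centre in a protein-coding gene had medians that overlapped across the lists in fold and pileup. The median fold at members was 2.81, 2.69 and 2.77 in replicates 1, 2 and 3, against 2.77, 2.74 and 2.70 inside genes. The mean difference was 0.0189 ± 0.0660 (SD, n = 3), smaller than its spread between the lists. The median pileup was higher at members in every list, by 1, 0.5 and 2 reads. The median peak width was lower in replicates 1 and 2 and higher in replicate 3, by -31, -14 and 1 bp. These values come from the same peak calls that chose the regions, so no test is given. With the midpoint of the region as centre, the difference turned to -0.0596 in fold and -0.333 reads in pileup. Among regions of 3 lists it was 0.189 in fold and 5.67 reads. A peak in all 3 lists was found at 38.4% of members and 40.3% of regions inside genes, and a mean fold of at least 4 at 17 of 216 and 10 of 176. The highest mean fold inside a gene was 5.85, below the 3 values of GI.

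The members were spread over the 5 chromosomes. There were 49, 30, 49, 41 and 47 on chromosomes 1 to 5, or 9.65, 10.4, 13.0, 13.2 and 10.1 per Mb of sequence that meets the position rule. Members of 3 lists were 14 of 49, 8 of 30, 22 of 49, 16 of 41 and 23 of 47 in the same order. Only 4 gaps between genes held more than 1 member, the one beside BBX28 among them.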

How the data were processed

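The data were 1 deposited peak list for each of 3 ChIP replicates. The submitters' processing notes name CASAVA 1.4 and the genome build TAIR10. Aligner, peak caller, threshold and the use of the input were not given in the sources used here. Per the file headers each peak has a position and width in bp, a pileup signal at the summit, a fold (ratio) over background, and the −log10 of a p-value and of a q-value, all made by the authors. Library totals are unknown, so pileups are not scaled for depth here.

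Members and gene lists were chosen with earlier results of these data known. Gene names and distances came from a RefSeq gene table on TAIR10.1 with 27432 protein-coding nuclear genes. The distances assume that its nuclear positions are those of TAIR10, and no gene coordinates are printed. All 113 list genes were in the table; for 9 the table lacked the list's symbol, RVE5 among them, and the list's symbol is printed. Where a list had more than 1 peak in a region, its highest value was used. Genes named are the neighbours of the 25 members of 3 lists that rank highest on average by fold, of members beside list genes, of the 5 best members of 2 lists, and of the 3 regions on either side of 1000 bp; others were chosen after their values were seen. Members and regions inside genes were set side by side as medians within each of the 3 lists; the planned sign-flip test of these differences is not reported, because the peak calls chose both classes and its smallest p-value with 3 lists is 0.25. The merging and placing of regions was tested on simulated data. Python 3.11.15, numpy 2.4.6, pandas 2.3.3, scipy 1.17.1 and matplotlib 3.10.9 were used. No strand and no sequence were used here, so the planned results on the side of the gene, gene pairs and 7 motifs were not run.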

Additional observations from a re-analysis of the deposited data

How the results depend on the processing

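The number of regions, 216, moved to 83 when all 3 lists had to hold a peak, to 118 to 134 without 1 replicate, and to 117 with the 50% of each list with the better p-values. These settings ask for more or leave fewer peaks. The median distance, 190 bp, was 159 to 197 bp without 1 replicate, 133 bp in the better 50%, 167 bp with summits within 100 bp, 180 bp with the midpoint as centre, and 136.5 and 223 bp with flanks of 500 and 2000 bp. The share within 200 bp, 52.8%, was 57.8% in all 3 lists, 51.7% to 57.6% without 1 replicate, 60.7% in the better 50%, 56.5% with close summits, and 63.0% and 46.7% with the flanks of 500 and 2000 bp. With the midpoint as centre the difference from regions inside genes turned, to -0.0596 in fold and -0.333 reads in pileup; the cause was not tested. Without 1 replicate the fold difference was 0.0847 to 0.120.

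The number of core clock genes with a member, 7, was 6 with a flank of 500 bp, 8 with 2000 bp, 9 with the midpoint as centre, and 7 under the other settings. Clock output genes fell from 5 to 3 with the midpoint and with 500 bp, and cold genes from 2 to 1 with 500 bp. B-box genes, 5, fell to 3 in all 3 lists and to 3 to 4 without 1 replicate. Light genes, 2, fell to 0 in all 3 lists and 0 to 1 without 1 replicate. Heat genes, 2, fell to 1 in the better 50% and with the midpoint. The 1 leaf gene fell to 0 in all 3 lists, in the better 50% and with close summits, and to 0 to 1 without 1 replicate. The 1 jasmonate gene did the same, and also fell to 0 with 500 bp. Of the 25 named members of 3 lists, 20 met the rule with the midpoint and at least 23 under each other setting. No paired analysis between groups of samples was possible because the 3 lists belong to 1 group, with no other group to pair them with. The differences between members and regions inside genes were taken within each list. A typical pileup near 40 reads and unknown totals limit what can be said of a peak missing from a list.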

Other observations

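Genes of other regulators also had members beside them. They were chosen after their values were seen, are not tested, and stand beside the 1.27% of all protein-coding genes that had a member. AP2/ERF-type factors included DREB2B and DREB2C, regulators of the response to drought and heat. The DREB2B region lay 42 bp from the gene and had a fold of 2.92, 2.83 and 3.40 in replicates 1, 2 and 3. Its centre also lay 944 bp from TBL32. The DREB2C region lay 94 bp from DREB2C and had 2.66 and 2.85 in replicates 2 and 3. Its centre also lay 846 bp from AT2G40350. Besides HSFA3 and HSFA1B, the heat shock factor gene HSFA6B had a region with 2.39, 2.31 and 2.99 but with summits 292 bp apart. NAC085 had a fold of 3.05, 3.45 and 3.64 with a pileup of 51, 61 and 66 reads. The homeobox gene HAT3, which acts in leaf polarity, had 3.31, 3.07 and 2.89. The HAT3 centre lay 400 bp from HAT3 and 552 bp from AT3G60380. PIL2, also known as PIF6, a bHLH factor related to PIF4, had 3.49, 2.35 and 2.91. Unlike PIF4 it had a peak in every list. Its mean fold was lower, but the mean of PIF4 leaves out the list without a peak.

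Examples of flowering and clock genes outside the lists, which do not cover all such members, were AGL20, also known as SOC1, which promotes flowering, AP1, a floral meristem gene, and TIC, a clock regulator. AGL20 had a fold of 3.11 and 3.09 in replicates 1 and 3, AP1 had 2.28 and 2.19 in replicates 1 and 2, and TIC had 2.71 and 2.62 in replicates 2 and 3. TPPE, a second trehalose-6-phosphate phosphatase gene in addition to TPPG, had 3.01 and 3.16 in replicates 1 and 3, with summits 7 bp apart. The TPPE region lay on chromosome 2 and the TPPG region on chromosome 4.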
